A study of Mus musculus with 8 samples.

Results

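The simple epithelial genes *Krt7*, *Krt8*, *Krt18*, *Krt19*, *Epcam*, *Cdx2*, *Elf3* and *Ehf* were examined in laser-captured mouse endometrium. They were found in the count table by symbol from a list drawn up with earlier results of these data known, without a threshold on their values. They are 8 of its 52325 genes, and 7 of them passed the filter on low counts. RNA-seq libraries came from the endometrium of 4 WT female mice and 4 *Thra1PV/+* female mice, all synchronized at metestrus. The *Thra1PV/+* mice carry a frame-shift mutation, PV, knocked into 1 allele of *Thra*, which gives a dominant negative thyroid hormone receptor alpha 1 in every cell that transcribes the gene, so an effect in the uterus cannot be told apart from one that comes from other organs. The labels name no other allele or agent for either genotype, and the ages of these mice are not given in the sources used here.

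Epithelial cells of the uterine lumen and glands form a single layer, and their intermediate filaments are built from simple keratins. Each filament pairs a type II keratin, such as *Krt7* or *Krt8*, with a type I keratin, such as *Krt18* or *Krt19*. Stratified squamous epithelium, as in skin, uses other pairs, with *Krt5* and *Krt14* in its basal layer. *Epcam* encodes a surface adhesion molecule of simple and glandular epithelia, *Elf3* and *Ehf* encode ETS transcription factors found mainly in epithelia, and *Cdx2* encodes a homeobox factor of the intestinal lining that also acts in the trophectoderm.

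Library totals ranged from 48791883 to 59819099 estimated counts. Libraries of the same genotype correlated across all tested genes at Pearson's r from 0.901 to 0.974, a description since genes are not replicates. *Thra* itself had 80.1 ± 34.2 CPM (SD, n = 4) in *Thra1PV/+* and 78 ± 33.7 CPM (SD, n = 4) in WT endometrium, and its counts do not separate the PV transcript from the WT one, so they do not check the labels. WT library 1 stood apart in smooth muscle genes, whose summed level was 12600 CPM there and 529 to 1090 CPM in the other 3 WT libraries.

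The sequences before the transcription start show 4 members on which the results turn: *Krt7*, the simple keratin with the largest difference, the filament partners *Krt8* and *Krt18*, and *Epcam*. Each line is read 5′ to 3′ on the strand of the gene. It gives, from the 250 bases upstream of the RefSeq start (GRCm38.p6), those that GENCODE does not mark as untranslated exon of the gene. Capitals mark GGAAG, a form of the ETS core, or CTTCC where it lies on the opposite strand. Other forms of the ETS core were not searched, so a window without capitals can still hold them.
Krt7: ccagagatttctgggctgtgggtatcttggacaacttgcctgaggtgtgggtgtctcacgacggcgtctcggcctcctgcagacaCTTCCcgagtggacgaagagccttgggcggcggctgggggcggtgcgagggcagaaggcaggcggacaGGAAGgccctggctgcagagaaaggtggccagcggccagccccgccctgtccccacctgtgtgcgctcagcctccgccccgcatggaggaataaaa
Krt8: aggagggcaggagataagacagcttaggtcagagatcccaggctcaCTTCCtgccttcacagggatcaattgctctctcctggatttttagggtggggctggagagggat
Krt18: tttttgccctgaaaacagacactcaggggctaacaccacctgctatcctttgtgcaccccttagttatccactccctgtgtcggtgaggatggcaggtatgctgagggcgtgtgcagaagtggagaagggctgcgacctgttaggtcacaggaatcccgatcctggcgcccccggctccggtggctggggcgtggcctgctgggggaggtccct
Epcam: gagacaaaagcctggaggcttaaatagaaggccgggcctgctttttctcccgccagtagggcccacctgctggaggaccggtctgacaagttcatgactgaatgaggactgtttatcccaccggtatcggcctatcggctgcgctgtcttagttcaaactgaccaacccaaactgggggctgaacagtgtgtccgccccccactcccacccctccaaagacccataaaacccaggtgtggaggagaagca
These bases are at chr15:101412153-101412401 (plus strand) for *Krt7*, chr15:102004483-102004592 (minus strand) for *Krt8*, chr15:102027966-102028179 (plus strand) for *Krt18* and chr17:87635729-87635978 (plus strand) for *Epcam*. The RefSeq start differs from the GENCODE start of the gene span given further on for *Krt7*, *Krt8* and *Krt18*. The *Krt7* window lies inside that span, which begins at an earlier transcript start, and 1, 140 and 36 bases of the *Krt7*, *Krt8* and *Krt18* windows were left out as untranslated exon. The promoter table held 6 of the 8 members, and motifs were searched in the whole 250 bases. GGAAG was found on either strand in 64.1% of all 32851 promoters of the same length. *Krt7* had 2 matches, 165 and 97 bases upstream, *Krt8* had 1 at 204 bases, and *Cdx2* had 2 at 244 and 237 bases, while the windows of *Krt18*, *Epcam* and *Elf3* held none. TATAAA, present in 12.4% of all promoters, was in none of the 6 windows. Guanine and cytosine made up 55.2% to 66% of the 6 windows, against a median of 52.4% over all promoters. A match is a description of letters and shows no binding.

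The first question was whether transcripts of the simple epithelium were lower in the mutant endometrium. No member passed the test. In edgeR's quasi-likelihood test, where a call needed a Benjamini-Hochberg adjusted p, over all tested genes, of at most 0.1 and at least a 2-fold difference, 0 of 7 tested members were called, where 0.990% of the 18174 tested genes were. At an unadjusted p under 0.05 the edgeR count was also 0 of 7, against 9.77% of all tested genes. At the main thresholds 0 of 7 were called by DESeq2 (3.58% of genes with an adjusted p), limma voom (1.71%), limma on log2(TPM + 1) (0.836%) and limma on log2(TPM + 0.1) (1.24%). With 7 genes, 0 calls is near each of these backgrounds. *Krt7* passed an unadjusted 0.05 in limma voom, at 0.0496, with an adjusted p = 0.399. The libraries of the genotypes overlapped for 7 of 7 members, and 6.04% of all tested genes showed no overlap. The median log2 fold change was 0.09 over the 7 members and -0.05 over all tested genes. The 95% intervals of single members were wide, and none of them shows that the genotypes were equal. In bulk RNA, fewer epithelial cells and less RNA per cell cannot be told apart.

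*Krt8* (ENSMUSG00000049382.9, GRCm38, chr15:101996698-102004482, minus strand), the type II keratin common to simple epithelia, had 401, 752, 1160 and 757 CPM (estimated counts scaled to a common library total after TMM) in *Thra1PV/+* libraries 1 to 4. The WT libraries had 477, 599, 1100 and 1470 CPM. Library 1 was the lowest of each genotype, and the single highest value was WT library 4. The means were 766 ± 308 CPM and 912 ± 459 CPM (SD, n = 4 each), a log2 fold change of -0.25 (standard error, SE, 0.43, edgeR adjusted p = 0.902), with a 95% interval of the ratio from 0.428 to 1.65.

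*Krt18* (ENSMUSG00000023043.6, chr15:102028180-102032027, plus strand), the type I partner of *Krt8*, had 223, 400, 492 and 495 CPM in *Thra1PV/+* and 269, 367, 706 and 582 CPM in WT endometrium. As with *Krt8*, library 1 was lowest in each genotype, and *Thra1PV/+* library 1 was the only mutant library below all WT libraries. The means of 403 ± 127 and 481 ± 199 CPM (SD, n = 4 each) differed by a log2 fold change of -0.26 (SE 0.36, edgeR adjusted p = 0.876), with a ratio between 0.475 and 1.48. The genes of the pair lie 23697 bases apart. Their ratio, per length of the principal transcript, was 1.39 ± 0.254 in *Thra1PV/+* and 1.38 ± 0.323 in WT endometrium (SD, n = 4 each), with ranges of 1.12 to 1.73 and 1.15 to 1.85.

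*Krt19* (ENSMUSG00000020911.14, chr11:100140810-100148665, minus strand), a short type I keratin of ducts and glands, had 386, 682, 975 and 618 CPM in *Thra1PV/+* and 304, 546, 979 and 893 CPM in WT endometrium. The highest library of each genotype, library 3 in both, had nearly the same level. The log2 fold change was -0.03 (SE 0.40, edgeR adjusted p = 0.988), with a ratio between 0.515 and 1.86, and its sign changed between alternatives.

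*Krt7* (ENSMUSG00000023039.16, chr15:101411043-101430313, plus strand), a type II keratin of glandular, ductal and transitional epithelia, was the only 1 of the 4 simple keratins with a higher mean in the mutant. It had 276, 533, 550 and 420 CPM in *Thra1PV/+* and 163, 177, 501 and 378 CPM in WT endometrium. Mutant libraries 2 and 3 were above all 4 WT libraries, and WT libraries 1 and 2 were below all 4 mutant libraries, while the middle of the ranges overlapped. The means were 445 ± 126 and 305 ± 164 CPM (SD, n = 4 each), a log2 fold change of 0.55 (SE 0.40, edgeR adjusted p = 0.727), with a ratio between 0.773 and 2.76.

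*Epcam* (ENSMUSG00000045394.8, chr17:87635979-87651129, plus strand) had 307, 797, 871 and 648 CPM in *Thra1PV/+* and 360, 261, 789 and 1060 CPM in WT endometrium. Its lowest and highest libraries were both WT. The means of 656 ± 251 and 616 ± 372 CPM (SD, n = 4 each) gave a log2 fold change of 0.09 (SE 0.49, edgeR adjusted p = 0.977), with a ratio between 0.49 and 2.31.

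*Elf3* (ENSMUSG00000003051.13, chr1:135253575-135258568, minus strand) varied most among the members. It had 357, 1110, 935 and 752 CPM in *Thra1PV/+* and 290, 153, 1380 and 690 CPM in WT endometrium, an 8.98-fold range among WT libraries and a 3.12-fold range among mutant libraries. The log2 fold change was 0.33 (SE 0.65, edgeR adjusted p = 0.917), with a ratio between 0.45 and 3.52. Without WT library 3, the highest of the 8, it was 1.09 (adjusted p = 0.513 from edgeR).

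*Ehf* (ENSMUSG00000012350.15, chr2:103263433-103303278, minus strand), another epithelial ETS factor, had 194, 401, 281 and 247 CPM in *Thra1PV/+* and 98.4, 232, 428 and 274 CPM in WT endometrium. WT library 1 was lowest and WT library 3 highest, so the mutant range lay inside the WT range. The log2 fold change was 0.12 (SE 0.41, edgeR adjusted p = 0.959), with a ratio between 0.564 and 2.1. The *Elf3* to *Ehf* ratio of counts was 0.661 in WT library 2 and between 1.85 and 3.33 in the other 7 libraries.

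*Cdx2* (ENSMUSG00000029646.3, chr5:147300805-147307270, minus strand) had 0 counts in each of the 8 libraries and was not tested. At these totals, a count of 0 allows up to 3 counts in a library, for counting error only.

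**Figure D1:**
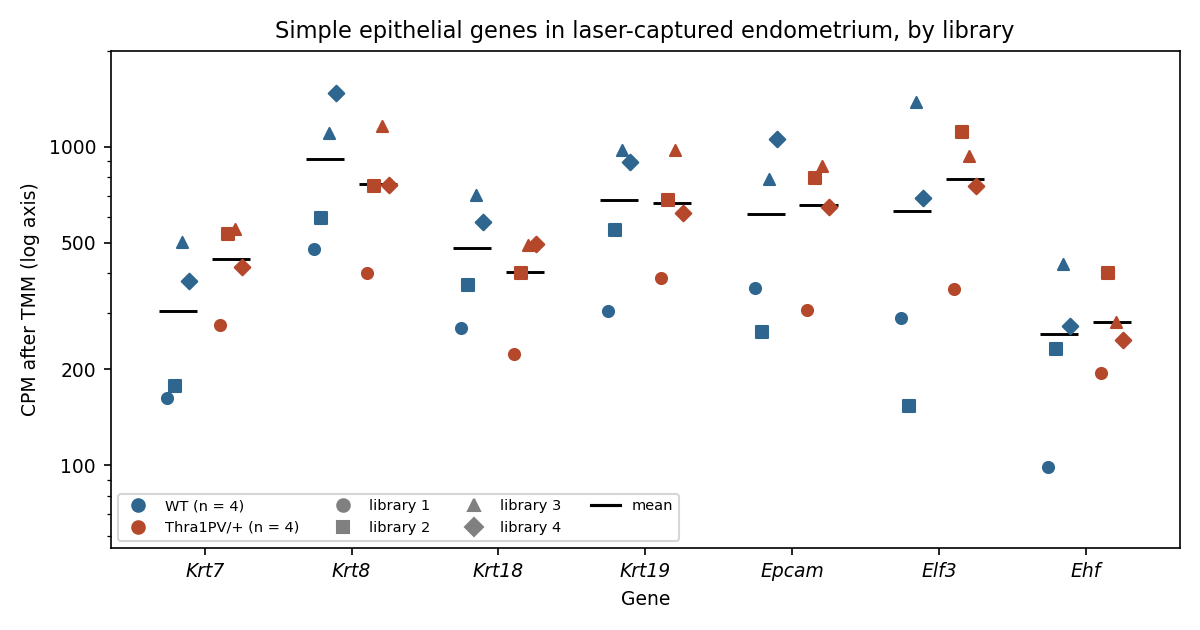
CPM after TMM of the 7 detected members in each library on a log axis, with WT libraries in blue, *Thra1PV/+* libraries in red, the library number as the marker shape and the mean as a bar. The genotypes overlap for every gene shown, and *Elf3* spans the widest WT range, from 153 to 1380 CPM.

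**Figure D2:**
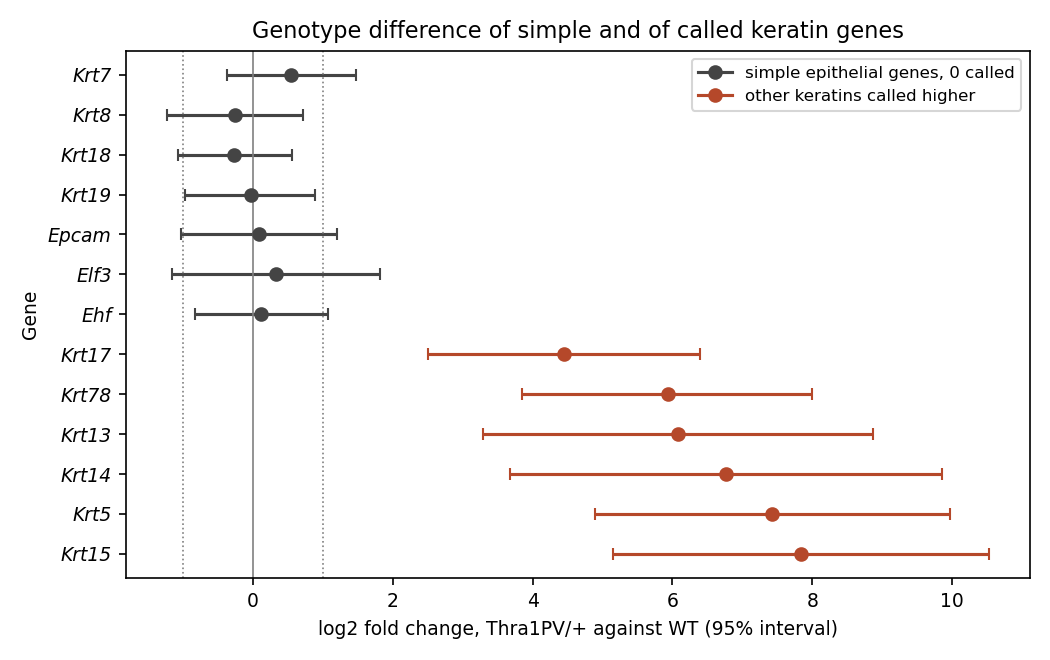
Log2 fold change of *Thra1PV/+* against WT endometrium with its 95% interval, for the 7 tested members in grey and for 6 other keratin genes called higher in red; dotted lines mark a fold change of 2. The member intervals all include 0, and the *Krt7* point is at 0.55 while *Krt15* is at 7.84.

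Levels were compared between members on the deposited TPM scale, which corrects for length and which the authors had quantile-normalized. *Krt19* was first with a mean over the 8 libraries of 616 ± 177 TPM (SD), followed by *Krt8* at 511 ± 196, *Epcam* at 455 ± 187, *Elf3* at 397 ± 218, *Krt18* at 346 ± 103, *Krt7* at 172 ± 67.2 and *Ehf* at 73 ± 26.7 TPM. *Krt18* was above *Krt7* in 8 of 8 libraries and *Krt7* above *Ehf* in 8 of 8. The first 5 genes differed from their neighbours by less than the spread over libraries, and *Elf3* was above *Krt18* in 5 of 8 libraries. The sum of the type II keratins over the sum of the type I keratins was 0.732 ± 0.0463 TPM per TPM in *Thra1PV/+* and 0.68 ± 0.131 in WT endometrium (SD, n = 4 each).

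The members varied together from library to library, in both genotypes. In WT libraries 1 and 2 and in *Thra1PV/+* library 1, 7 of 7 members were below their own mean over the 8 libraries, and in WT libraries 3 and 4 and *Thra1PV/+* library 3, 7 of 7 were above it. *Thra1PV/+* library 2 had 5 above and library 4 had 4 above. On the log2 scale the mean of the 16 pan-epithelial genes, such as *Cdh1* (E-cadherin) and *Spint2* (a protease inhibitor), was below its mean in the same 3 libraries, by 0.98, 0.26 and 0.47 for WT library 1, WT library 2 and *Thra1PV/+* library 1. The mean of the 11 stromal genes was 1.48, 1.45 and 1.14 above its own in those 3 libraries. How many of all tested genes were low and high in the same libraries was not counted. The part of epithelial share in the members' levels was not tested.

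**Figure D3:**
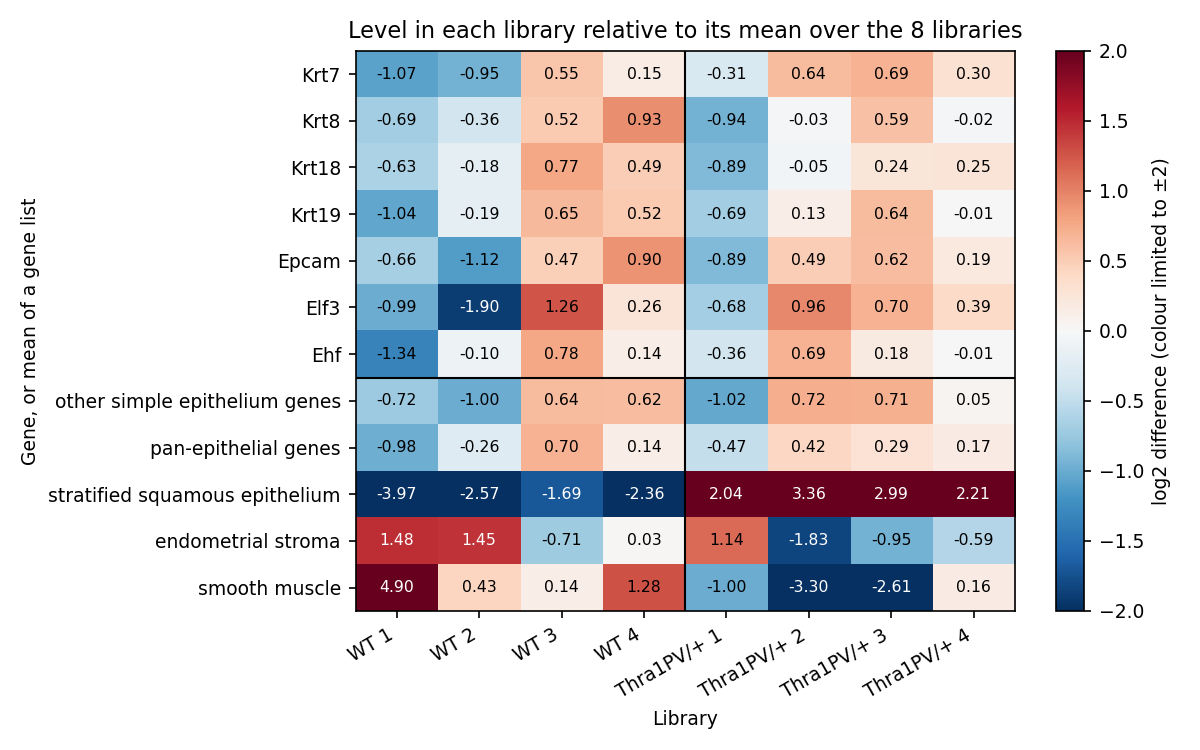
Log2 difference of each member, and of the mean of 5 gene lists, from its mean over the 8 libraries, by library. The members and both epithelial lists are low in WT 1, WT 2 and *Thra1PV/+* 1, where the stromal list is high; the squamous list, which includes genes chosen with earlier results known, splits by genotype instead.

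Each member was then set against the mean log2 CPM of the pan-epithelial genes in the same library, a step chosen after the data were seen. That mean covers epithelia in general, so in the mutant it can include squamous cells, whose part was not tested. The SD over the 8 libraries became smaller for 7 of 7 members, from 0.66 to 0.20 for *Ehf*, from 0.62 to 0.26 for *Krt19*, from 0.70 to 0.33 for *Krt7* and from 1.09 to 0.71 for *Elf3*. Any gene that varies with the pan-epithelial genes loses spread in this step. The share of all tested genes that did so was not counted, so the fall is not shown to be particular to the members. *Krt7* was the only member whose genotypes did not overlap on this scale. Its values were 2.18, 2.24, 2.42 and 2.15 in *Thra1PV/+* and 1.93, 1.33, 1.87 and 2.03 in WT libraries, a difference of 0.45. Of all tested genes, 3.31% did not overlap on the same scale. *Elf3* had a larger difference, 0.48, but its ranges overlapped. *Krt18* differed by -0.43, *Krt8* by -0.41, *Krt19* by -0.17, *Ehf* by 0.05 and *Epcam* by -0.00, and their ranges overlapped.

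With the pan-epithelial mean as a covariate in the edgeR fit, 0 of 7 members were called, against 2.18% of all tested genes. *Krt7* had a log2 fold change of 0.42 (unadjusted p = 0.0423, adjusted p = 0.334) and *Krt18* one of -0.40 (unadjusted p = 0.0516, adjusted p = 0.366), both from edgeR. The *Krt7* to *Krt8* ratio of counts, chosen after the values were seen, was 0.689, 0.709, 0.476 and 0.555 in *Thra1PV/+* and 0.341, 0.296, 0.454 and 0.258 in WT libraries. The genotypes did not overlap, but 0.476 and 0.454 nearly touch. How often other gene pairs do not overlap was not counted, so the separation is a description only. The *Krt19* to *Krt18* ratio of counts overlapped, at 1.67 ± 0.304 and 1.39 ± 0.183 (SD, n = 4 each).

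Without WT library 1, which had the high smooth muscle level, no member was called. The log2 fold changes were then -0.42 for *Krt8*, -0.41 for *Krt18*, -0.23 for *Krt19* and 0.38 for *Krt7*. They were -0.06 for *Epcam*, -0.10 for *Ehf* and 0.14 for *Elf3*. With all 8 libraries, 0 of the 6 smooth muscle genes were called and 6 had an unadjusted p under 0.05 in edgeR, with a median log2 fold change of -4.31, *Des* at -2.22 and *Tagln* at -3.44. Without WT library 1, 0 were called, 1 had an unadjusted p under 0.05 and the median was -1.66, with *Des* at -0.69 and *Tagln* at -1.15. The part of muscle in the members' values was not tested.

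Simple keratins were a smaller share of all keratin transcripts in the mutant, although their own summed level overlapped between genotypes. *Krt7*, *Krt8*, *Krt18* and *Krt19* summed to 1290, 2370, 3170 and 2290 CPM in *Thra1PV/+* and to 1210, 1690, 3290 and 3320 CPM in WT libraries. All other keratin genes summed to 2850, 4540, 4570 and 3310 CPM in *Thra1PV/+* and to 53.4, 108, 141 and 95.2 CPM in WT libraries. The simple keratins made up 31.1%, 34.3%, 41% and 40.9% of keratin counts in *Thra1PV/+* libraries 1 to 4, and 95.8%, 94%, 95.9% and 97.2% in the WT libraries. The mean shares were 36.8% ± 4.94 and 95.7% ± 1.31 (SD, n = 4 each), and per length they were 36.5% and 95.8%. Since some of the other keratins were known from earlier results to be higher, the share is a description with no test.

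**Figure D4:**
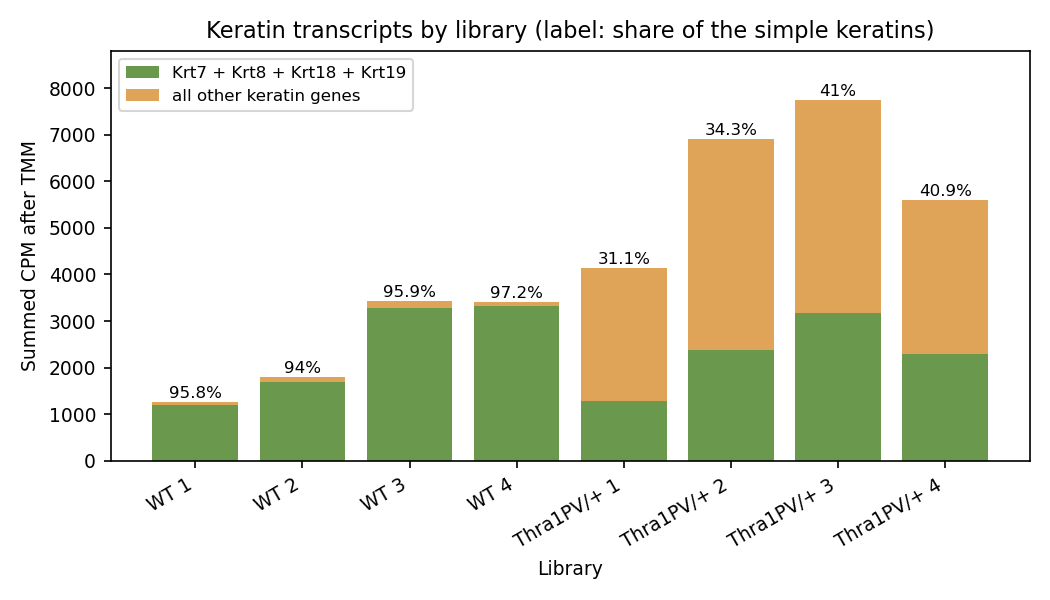
Summed CPM after TMM of *Krt7*, *Krt8*, *Krt18* and *Krt19* (green) and of all other keratin genes (orange) in each library, with the share of the simple keratins above each bar. The green parts overlap between genotypes, from 1210 to 3320 CPM in WT and 1290 to 3170 CPM in *Thra1PV/+* libraries, while the orange parts reach 4570 CPM in *Thra1PV/+* and 141 CPM in WT libraries.

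Among the 54 keratin genes found by symbol, 29 were tested, 15 on chromosome 15 and 14 on chromosome 11, and 7 were called, all higher in *Thra1PV/+* endometrium. They were *Krt5*, *Krt14* and *Krt15* of the basal layer, *Krt13* and *Krt78* of the upper layers of squamous lining, *Krt17* of appendages and stressed epidermis, and the hair keratin *Krt33b*. None of the 7 is a simple keratin. *Krt33b* was at 22 to 47 counts in the mutant libraries and at most 1 count in the WT libraries, so its fold change was not read. With 1 library left out, 2 to 8 keratins were called, 2 without WT library 4, 3 without *Thra1PV/+* library 3, and 4 without any other mutant library or WT library 2. With all libraries, 13 keratins were called by DESeq2, 2 with the replicate number as a block and 1 with at least 10 counts in every library. *Krt13* was lost in 7 of the 8 fits without a library, *Krt14* and *Krt17* in 6 each, and *Krt5*, *Krt15* and *Krt78* in 1 each. Simple and called keratins share the same clusters in the genome, and some of them adjoin. *Krt15*, at 912 and 3.98 CPM in *Thra1PV/+* and WT endometrium, ends 4881 bases from *Krt19*. *Krt5*, at 1460 and 8.48 CPM, lies between *Krt7* and *Krt8*. Since keratin transcripts resemble each other, the division of reads among these genes by salmon is uncertain.

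**Figure D5:**
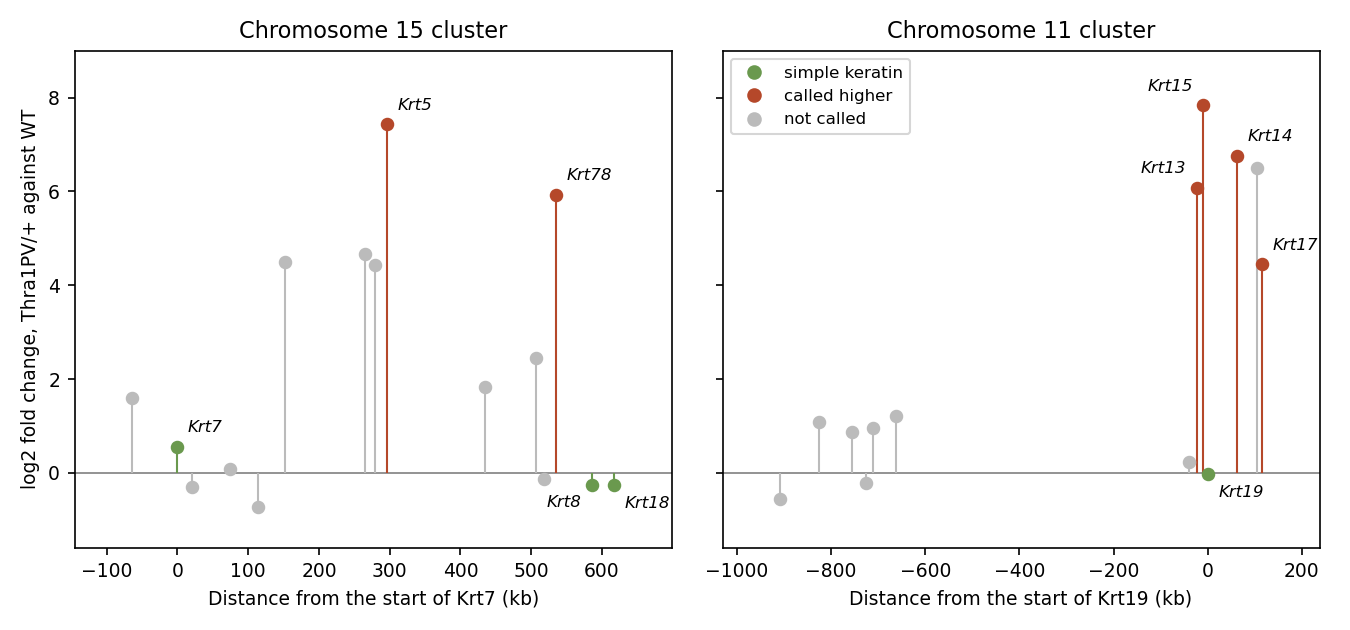
Log2 fold change of *Thra1PV/+* against WT endometrium of the tested keratin genes on each cluster, against the distance in kb from the start of *Krt7* (left) or *Krt19* (right); *Krt33b* is left out because WT libraries were at or under 3 counts. The 4 simple keratins, in green, have values between -0.26 and 0.55. *Krt15*, at 7.84, is next to *Krt19*, while the tested genes nearest to *Krt7* were not called.

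Genes of the other simple epithelium, pan-epithelial, uterine and gland lists were not called either. Of 12 other simple epithelium genes, 12 were tested and 0 were called, with a median log2 fold change of -0.06. The best expressed, *Cd24a* (a surface glycoprotein) and *Prom1* (an apical membrane protein), had 1410 ± 392 against 2010 ± 1770 CPM and 1240 ± 603 against 1960 ± 1770 CPM in *Thra1PV/+* and WT endometrium (SD, n = 4 each). Of the 16 pan-epithelial genes, 0 were called and the median was 0.07, with *Cdh1* at -0.09 and *Spint2* at -0.02. That list is not particular to simple epithelium, so its level does not separate simple from squamous cells. Of 9 uterine epithelium regulators, transcription factors apart from the secreted ligand *Wnt7a*, 8 were tested and 0 called, with a median of -0.16. *Sox17* was at -0.67 and *Msx1* at -0.28. Of the tested genes, 5 were lower and 3 higher, the latter *Wnt7a* at 0.81 (edgeR adjusted p = 0.528), *Pax2* at 0.34 and *Foxa2* at 0.27. These 3 were named for going the other way. Only 4 of 8 uterine gland genes passed the filter, 0 were called and the median was -0.25, with *Sox9* at -0.72 and *Cxcl15* at -0.69. *Foxa2* at 0.27 and *Lif* at 0.19, named for going the other way, make the list 2 higher and 2 lower. *Cxcl15* ranged from 0.259 to 122 CPM among WT libraries.

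*Elf3* and *Ehf* were then set beside the rest of their family. By mean TPM over the 8 libraries they ranked 1 and 3 of 24 ETS factors tested, with *Ets2* at rank 2 with 90.6 TPM. Of the other 24 listed factors, 22 were tested and 0 called, with a median log2 fold change of 0.11. *Ets2* was at -0.06 and *Elk3* at 0.33. *Spdef*, a factor of secretory cells, and *Elf5*, a relative of *Elf3* and *Ehf*, had genotypes that did not overlap. They were at 1.88 (adjusted p = 0.350) and 1.04 (adjusted p = 0.533) in edgeR, and were named after their values were seen. These are 2 of 22 factors, where 6.04% of all tested genes did not overlap, so the count is near the background. Both were low, with mutant means of 7.8 CPM for *Spdef* and 4.55 CPM for *Elf5*. Beside *Cdx2*, 7 of 14 intestinal epithelium genes passed the filter and 0 were called, with a median of 0.51. Its relatives *Cdx1* and *Cdx4*, named for that relation and not by the rule, were not tested. *Isx*, named for its 0 counts in every library, was not tested either. *Muc13* had 184 ± 68.7 and 20.1 ± 21.2 CPM (SD, n = 4 each; adjusted p = 0.341 from edgeR), and *Lgals4* was at -0.32.

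Markers of other cell types differed between the same libraries. Of 20 tested genes of stratified squamous epithelium, 11 were called higher and 0 lower, with a median log2 fold change of 5.37. *Col17a1*, a hemidesmosome collagen, was at 7.17 (SE 0.44, edgeR adjusted p = 0.00113), and *Ivl*, which encodes the envelope protein involucrin, was at or under 3 counts in each WT library and at 7.93 to 18.1 CPM in the mutant. DESeq2 called 17 of the list, the fit with the replicate block 6 and that with at least 10 counts in every library 4. With 1 library left out, 5 to 12 were called, 5 without WT library 4 and 7 without any 1 mutant library or WT library 2, and *Krt5* and *Krt15* then had an adjusted p of 0.115 without WT library 4. That list holds genes known from earlier results of these data, so its count is no independent evidence. No stromal, smooth muscle, endothelial or leukocyte gene was called. The stromal genes were lower in 11 of 11, from -2.24 to -0.05 (median -0.78, with *Col1a1* at -0.25 and *Col3a1* at -0.33). The leukocyte genes were higher in 7 of 7 tested, from 0.34 to 3.26 (median 1.73, with *Ptprc* at 0.50 and *Csf1r* at 0.55). Of the 6 endothelial genes, 4 were lower and 2 higher (median -0.20, with *Pecam1* at -0.39 and *Cdh5* at 0.10). An unadjusted edgeR p under 0.05 was found for 1 stromal, 4 leukocyte and 0 endothelial genes, against 9.77% of all tested genes. Over all tested genes, 43.2% had a positive log2 fold change. *Foxj1*, a factor of ciliated cells, was called lower at -2.54 (adjusted p = 0.00723 from edgeR). It was the only one called of 7 genes on the oviduct and ciliated list (median -0.94). Of the 3 tested genes on the mesothelial list (median -0.63), *Bnc1* was called higher at 4.63 (edgeR adjusted p = 0.0337). That call was lost without *Thra1PV/+* library 3 or WT library 3. *Bnc1* had 1.8 to 3.47 CPM in *Thra1PV/+* and 0.0209 to 0.286 CPM in WT libraries. *Upk3b* at -0.63 and *Wt1* at -1.12, named for going the other way, were not called. The call is therefore of 1 gene and does not show more mesothelium. The summed stromal level ranged from 603 to 5610 CPM in *Thra1PV/+* and from 1740 to 5530 CPM in WT libraries. The part of these cell types in the members' values was not tested.

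For each member, the genes with the nearest profile over the 8 libraries were found by the root mean square difference of mean-centred log2 CPM, among the 12132 tested genes whose mean log2 CPM reached 2. *Ehf* lay nearest to *Syne4* (0.08), *Cgn* (0.11) and *Esrp1* (0.17), and *Krt18* to *Smim22* (0.12), *E030030I06Rik* (0.16) and *Fam187b* (0.17). *Krt19* lay nearest to *A330035P11Rik* (0.13), *Slc35c1* (0.18) and *Cdh1* (0.18), and *Krt7* to *Mbp* (0.11), *Nipal2* (0.12) and *Tmco4* (0.15). *Epcam* was nearest to *Ldha* (0.16), *Txnrd1* (0.17) and *Cyba* (0.17), *Elf3* to *Sat1* (0.16), *Samd9l* (0.19) and *Tjp3* (0.19), and *Krt8* to *H2-Q2* (0.22), *Icam2* (0.23) and *Nectin2* (0.24). Between members, *Elf3* was at 0.77 from *Krt8* and from *Krt18*, and at 0.46 from *Krt7*. The keratins *Krt8*, *Krt18* and *Krt19* were 0.23 to 0.25 apart, while *Krt7* was at 0.51, 0.50 and 0.39 from them. The measure is not scaled for spread, and *Elf3* had the widest, with an SD of 1.09 over the 8 libraries.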

How the data were processed

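Read trimming was by Trimmomatic and quantification by salmon against mm10, as the methods and the submitters' processing notes name them, and versions are not given in the sources used here. The authors deposited estimated counts that are not normalized. The deposited TPM values had been quantile-normalized, since sorted values differed by at most 0.291 TPM between libraries. In the deposited TPM table, 1 further column belongs to no labelled sample and was not used. The labels number 4 replicates per genotype and the study names 4 mice of each, without saying how sections were pooled, so p-values measure the spread between these libraries.

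The estimated counts were rounded, filtered with filterByExpr (minimum count 10, minimum total 15; 18174 of 52325 genes kept), scaled by TMM and compared with edgeR 4.0.16 (quasi-likelihood test, limma 3.58.1, R 4.3.3), with Benjamini-Hochberg adjustment over all tested genes. Calls needed at least a 2-fold difference and an adjusted p of at most 0.1, the thresholds of the study's methods. Log2 CPM used a prior count of 2. DESeq2 1.42.0, which the authors also used, was an alternative, as were limma voom and limma on log2(TPM + 1) and log2(TPM + 0.1). Positions are from GENCODE M21 (GRCm38) and promoters from RefSeq. Lengths are of the longest principal transcript, or of all exons together where none is marked.

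Named genes are the 8 members, *Thra*, up to 4 called members of each list by size of change, or its 2 best expressed where none is called, called keratins, and the 3 genes with the nearest profile to each member. A few genes are named outside this rule, each with the reason beside it. The members, lists and named genes were chosen with earlier results of these data known. Lists cover simple, pan-epithelial, uterine epithelial, gland, ETS, intestinal, squamous, stromal, smooth muscle, mesothelial, oviduct and ciliated, leukocyte and endothelial genes.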

Additional observations from a re-analysis of the deposited data

Results flagged for a closer look

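Dixon's ratio, the gap of the extreme library to the next over the range of its 4 libraries, was checked in 86 groups of 4 on the CPM or log2 CPM scale, the keratin share and the *Krt8* to *Krt18* ratio. It was above the 95% critical value for 4 libraries in 2 groups, where chance gives 4.3. The summed level of the smooth muscle genes was 12600 CPM in WT library 1, a ratio of 0.953. That of the genes on the mesothelial list was 72.5 CPM in *Thra1PV/+* library 1, a ratio of 0.93. *Wt1* alone had 68.7 CPM there, so the second value is mostly that of 1 gene and does not show mesothelium. No group was above it for the level of a member.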

How the results depend on the processing

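No member was called under any of the alternatives. The number of genes called was 180, and 791 with DESeq2 (71.8% of them higher, against 93.3%), 311 with limma voom (81.4% higher), 396 with the pan-epithelial mean as a covariate (76.3% higher), 119 at an adjusted p of 0.05, 1775 at an unadjusted p under 0.05, 81 with at least 10 counts in every library and 82 with the replicate block; it was 81 to 167 with 1 library left out, at 81 without *Thra1PV/+* library 3, 116 without *Thra1PV/+* library 2 and 114 without WT library 4. With 1 library left out, the log2 fold change was 0.38 to 0.92 for *Krt7*, -0.52 to 0.08 for *Krt8*, -0.41 to 0.01 for *Krt18*, -0.28 to 0.22 for *Krt19*, -0.13 to 0.48 for *Epcam*, 0.05 to 1.09 for *Elf3* and -0.10 to 0.50 for *Ehf*, so the sign changed for 5 of 7 members. *Krt19* also changed sign with upper quartile scaling (0.02), library size (0.06), the replicate block (0.03) and limma voom (0.16), and *Epcam* with the covariate (-0.12); the cause was not tested. Same-numbered libraries correlated at 0.269, -0.436, 0.34 and -0.159 in their deviations from the genotype means. Libraries with unlike numbers correlated at -0.511 to 0.561. These values cannot decide whether the numbers pair the libraries, and the labels do not say. The block gave 82 calls. The difference in simple keratin share was -58.9 percentage points and -60.3 to -57 with 1 library left out, and the *Krt8* to *Krt18* ratio differed by -0.102 to 0.17. *Cdx2* had 0 counts, and a level of up to 3 counts a library is not excluded at this depth.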

Other observations

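*Gpa33*, a surface antigen of intestinal epithelium, fell just outside the threshold, at 5.51 to 16.9 CPM in *Thra1PV/+* and 0.361 to 2.34 CPM in WT libraries (log2 fold change 3.20, adjusted p = 0.105 from edgeR), and was named after its values were seen. The keratins *Krt20* and *Krt23*, which are also used by simple epithelia and were named for that, after their values were seen, were at 0.95 and 1.22 (adjusted p = 0.88 and 0.639), with *Krt20* between 0.0903 and 31.7 CPM.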
